A study of Homo sapiens with 6 samples.

Results

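The clustered histone genes are the canonical histone genes named HIST1H, HIST2H, HIST3H or HIST4H. Every row of the deposited expression table whose name begins in one of these ways was taken, and 14 names that mark a numbered pseudogene were left out. This gave 75 genes of 60623 named rows, and no symbol was repeated. They comprised 6 H1, 17 H2A, 22 H2B, 15 H3 and 15 H4 genes, of which 55 lie in the HIST1 cluster, 15 in HIST2, 4 in HIST3 and 1 in HIST4. GENCODE release 29 (GRCh38) held 73 of them by identifier and typed 5 as pseudogenes (HIST2H2BA, HIST2H2BC, HIST2H2BD, HIST2H3DP1 and HIST3H2BA).

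RNA was sequenced from 6 libraries labelled RPMI-8226, an established multiple myeloma line, all at 48 h. The control group had 3 libraries and the group given XYA1353, which the study's title describes as a 2-iminobenzimidazole compound, had 3. The comparison asks which transcripts differed under the compound, whose action that title links to NF-kB signalling. No dose or vehicle is given in the labels, and nothing in them says that libraries came from separate cultures, so a p-value here measures only how these libraries vary, and that variation may be technical. Fewer cells of a type and less RNA per cell cannot be told apart in bulk RNA. The defining markers of the labelled cell type were mostly missing. Of 12 plasma cell and myeloma markers 11 had a mean under 1 TPM, and 6, CD38, TNFRSF17 and JCHAIN among them, were listed at 0 in all 6 libraries, while all 13 erythroid markers had a mean of at least 10 TPM. The marker sums were 65.6 to 71.8 TPM in control and 99.6 to 144.8 TPM in XYA1353 libraries for the plasma cell list, nearly all of it XBP1, and 10690 to 13380 TPM and 7103 to 18710 TPM for the erythroid list. Values are TPM, a length-scaled share of each library's transcripts on a common total, which hides the number of reads, and sequencing depth is therefore unknown.

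Core histones H2A, H2B, H3 and H4 form the nucleosome, and H1 binds the DNA between nucleosomes. Most clustered histone genes are transcribed in S phase, together with DNA replication, and their mRNAs end in a short stem-loop in place of a poly(A) tail. The stem-loop is bound by SLBP, and the U7 snRNP directs the cut behind it. Some clustered genes also make polyadenylated transcripts that read past the stem-loop, a form known from cells that leave the cell cycle. Libraries that select poly(A) RNA recover the tailed form, whereas the stem-loop form is captured poorly. The labels name a SMARTer mRNA kit without saying how mRNA was selected, so the values may reflect either form.

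The stem-loop was looked for in the GENCODE release 29 transcripts as GGC, any base, CTTTT, any base, AG, any base and GCC, on the transcript strand only. It was found in 34 of the 73 members with a transcript sequence. By family these were 7 of 17 H2A, 14 of 22 H2B, 5 of 13 H3 and 8 of 15 H4 genes, and 0 of 6 H1 genes. For 30 members, 4 H1 genes among them, all annotated transcripts held coding sequence only, so the window did not reach the end of the mRNA. Outside the members the letters occurred in 6 of 58603 genes (0.0102%), and 1 of these was H2AFX, a histone variant gene. Stem-loops of genes described later are shown because they mark the mRNA end on which SLBP acts and differ between H4 and the other core histones. Capitals mark the stem-loop, lower case the 5 bases on either side, written 5′ to 3′.
HIST1H2BC: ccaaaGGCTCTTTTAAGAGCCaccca
HIST1H2BN: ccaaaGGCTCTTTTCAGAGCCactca
HIST1H2AG: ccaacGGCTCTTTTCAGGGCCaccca
HIST2H2AA3: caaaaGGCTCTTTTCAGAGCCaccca
HIST1H3H: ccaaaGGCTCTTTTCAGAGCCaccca
HIST2H4A: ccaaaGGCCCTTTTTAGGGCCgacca
HIST1H4H: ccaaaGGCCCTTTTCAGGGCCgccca
All 8 H4 stem-loops began with GGCCCT, and all 26 of the H2A, H2B and H3 genes with GGCTCT. In 24 of the 34 genes, an annotated transcript ran at least 100 bases past the stem-loop.

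Levels were very unequal among the members. Genes entered the test if they averaged 1 TPM or more across libraries, which 48 members did. The other 27 fell short, and 12 of those were listed at 0 in every library. At least 10 TPM was reached by 28 members and at least 100 TPM by 6. HIST1H2BK alone made up 40.1% of the summed TPM of all members and 78.8% of the H2B sum, and HIST1H1C made up 99.2% of the H1 sum. Some copies cannot be told apart by short reads. HIST2H3A and HIST2H3C carried the same value in every library, and the split of HIST2H2AA3 from HIST2H2AA4 and of HIST2H4A from HIST2H4B is uncertain.

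Most tested H2B genes had a log2 fold change (XYA1353 minus control) below 0 and most tested H4 genes above 0, but few single genes passed the test. The 3 tested H1 genes also lay below 0, with 0 called, and the groups overlapped for HIST1H1C, which held nearly all H1 TPM. With limma on log2(TPM + 1) and Benjamini-Hochberg adjustment over 13392 genes, 4 of the 48 tested members rose and 3 fell at an adjusted p under 0.05 (called). Over all genes tested 15.4% rose and 16% fell, so the members' calls, 14.6% in all, were fewer than the 31.4% of the background. HIST1H4K, HIST1H2AM, HIST1H2BN and HIST1H2AG rose, and HIST1H2BC, HIST2H3D and HIST2H2AC fell. At an unadjusted p under 0.05 the counts were 6 higher and 6 lower, where 42.8% of all genes passed (21.6% higher and 21.2% lower). The labels do not pair the libraries, and the replicate number was taken as a pair from weak correlations in these same data (0.111 to 0.133). Calls with this block therefore rest on a pairing chosen from the data. With it 7 members rose and 6 fell, or 27.1%, against 32.0% of all genes in that fit (15.8% higher and 16.2% lower). Groups did not overlap for 7 members that were higher and 4 that were lower, where 23.8% of all genes did so in each direction. HIST2H3A and HIST2H3C, which carry the same values, are both among those 7. Without XYA1353 replicate 3, 4 rose and 10 fell, where 17.5% of all genes rose and 15.8% fell. Without both libraries numbered 1, limma called 0 members higher and 0 lower, and its calls over all genes were 10.7% (4.85% higher and 5.85% lower). In that fit 4 and 4 members passed an unadjusted p under 0.05, against 15.1% of all genes higher and 18.2% lower.

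**Figure D1:**
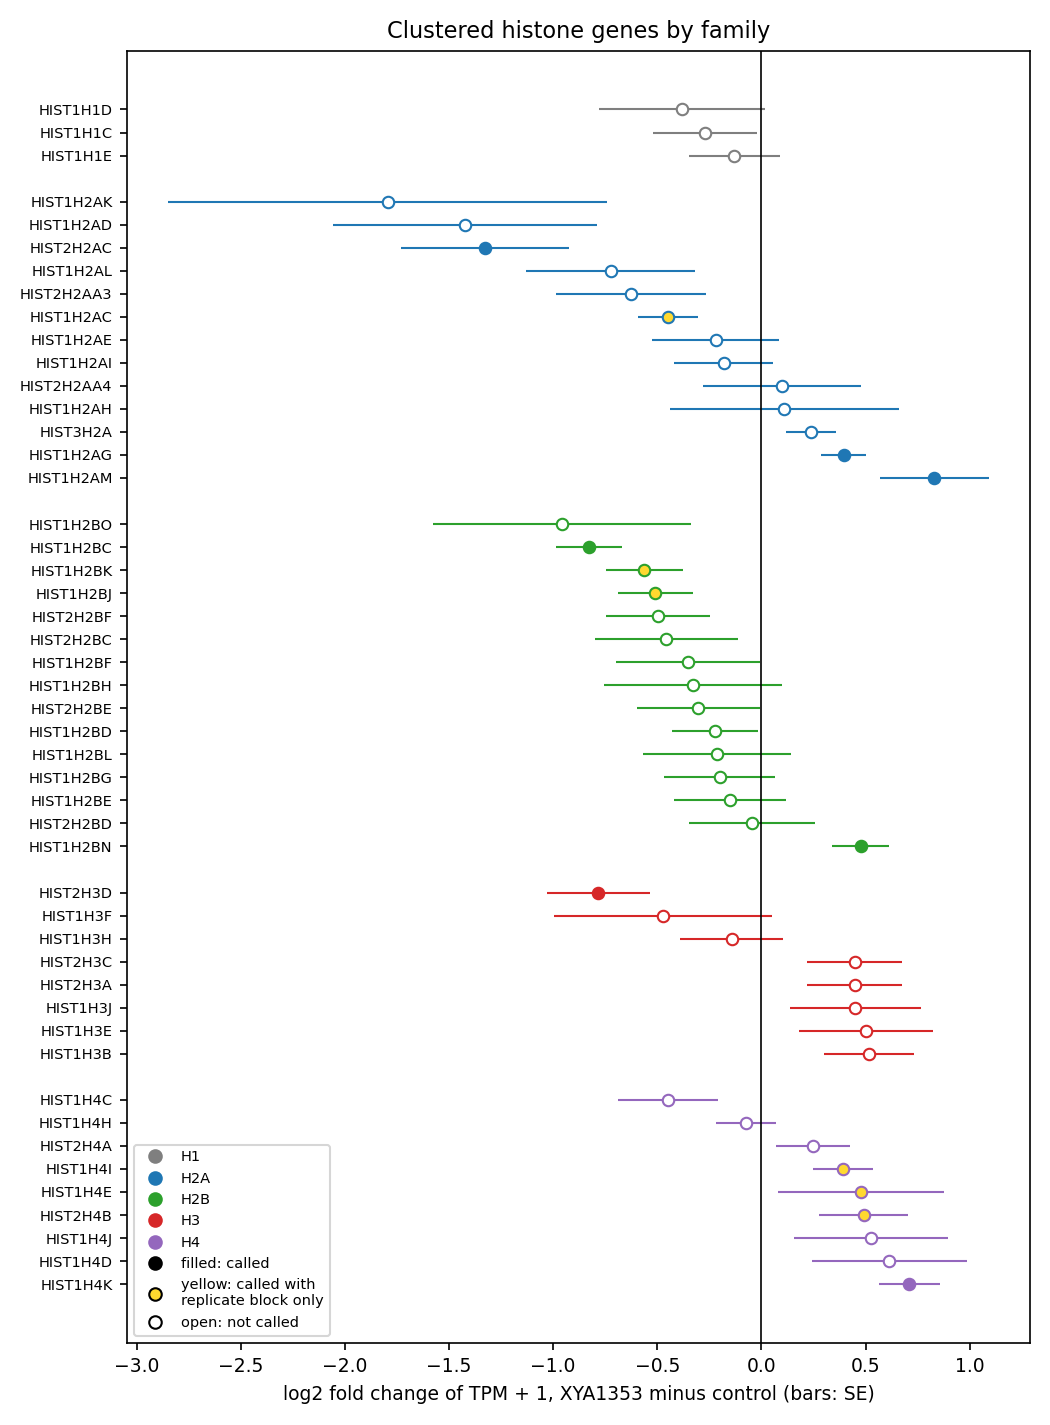
Log2 fold change of TPM + 1 (XYA1353 minus control) of the 48 tested clustered histone genes, grouped by family, with bars for the SE of the limma fit over 3 and 3 libraries. Of 15 H2B genes 14 lie below 0, and of 9 H4 genes 7 lie above 0.

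H2B genes, and among them mostly HIST1H2BK, carried most of the decrease in TPM. HIST1H2BK (ENSG00000197903, GRCh38 chromosome 6, 27146418 to 27146798, minus strand) was the most abundant member. It stood at 1753, 1856 and 2250 TPM in control replicates 1, 2 and 3 and at 1027, 1276 and 1737 TPM in the XYA1353 libraries of the same numbers. In all later sentences libraries keep this order. The highest XYA1353 library lay just below the lowest control library, so the groups did not overlap. Its log2 fold change of -0.56 (SE 0.19) missed the threshold with a limma adjusted p of 0.0563, which became 0.00964 with the replicate block. The adjusted p was 0.0925 to 0.176 on leaving out any 1 library except XYA1353 replicate 3 (0.00997).

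HIST1H2BC (ENSG00000180596, chromosome 6, 26114873 to 26123926, minus strand) had values of 198, 199.5 and 236 TPM in control libraries and at 97.1, 113 and 151 TPM in XYA1353 libraries. Every XYA1353 library was below every control library. It fell by 0.83 on the log2 scale (SE 0.16), with a limma adjusted p of 0.00793, and the call was lost only without both libraries numbered 1 (adjusted p = 0.0618) among the settings tried. HIST1H2BD stood at 54.5, 66.0 and 89.5 TPM in control and at 49.9, 53.9 and 74.7 TPM in XYA1353 libraries, with overlapping groups (log2 fold change -0.22, adjusted p = 0.449 by limma). HIST1H2BJ was chosen for mention with its values in view. It had no call (log2 fold change -0.51, limma adjusted p = 0.0692), but passed with the block (0.0125) and without XYA1353 replicate 3 (-0.65, limma adjusted p = 0.04). In the other alternative settings its limma adjusted p was 0.0529 to 0.204.

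HIST1H2BN (ENSG00000233822, chromosome 6, 27837760 to 27865798, plus strand) was the only H2B gene of the 15 with a fold change above 0. It stood at 28.9, 29.9 and 34.7 TPM in control libraries and at 39.8, 39.1 and 53.2 TPM in XYA1353 libraries, with no overlap. The rise was 0.48 on the log2 scale (SE 0.14, limma adjusted p = 0.034), and it was lost on leaving out any 1 library except XYA1353 replicate 3 (limma adjusted p from 0.0507 to 0.109). It was also lost under median-of-ratios scaling (limma adjusted p = 0.0545), no trend (0.056) and no filter (0.0887). The annotated span of HIST1H2BN contains HIST1H2AK on the opposite strand and HIST1H2AL on the same one. The labels do not say whether counting used strand, so reads of overlapping genes cannot be told apart. The 15 tested H2B genes had 1 rise, 1 fall and 13 genes without a call. Their median log2 fold change was -0.33, against 0.02 over all genes tested. With the block 3 fell and 1 rose.

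H2A genes split in both directions. HIST1H2AC (ENSG00000180573, chromosome 6, 26124145 to 26139116, plus strand) stood at 117, 122 and 141 TPM in control and at 85.7, 79.5 and 115 TPM in XYA1353 libraries. The groups did not overlap, yet the difference of -0.45 on the log2 scale (SE 0.14) fell just short with a limma adjusted p of 0.0519, or 0.0137 with the block. The adjusted p was 0.0879 to 0.162 on leaving out any 1 library except XYA1353 replicate 3 (0.00651). HIST2H2AA3 stood at 196, 211 and 288 TPM in control and at 90.9, 133 and 266 TPM in XYA1353 libraries. Its XYA1353 replicate 3 lay inside the control range, and the log2 fold change was -0.63 (limma adjusted p = 0.227), or -1.05 without that library (adjusted p = 0.016). The near-identical HIST2H2AA4 stood at 82.8, 147 and 176 TPM in control and at 86.9, 134 and 224 TPM in XYA1353 libraries, with broad overlap (log2 fold change 0.10, adjusted p = 0.867 by limma). Because the split of these copies is uncertain, they were also summed, which gave a log2 fold change of -0.33 (limma adjusted p = 0.512).

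HIST1H2AG (ENSG00000196787, chromosome 6, 27133042 to 27135291, plus strand) rose without overlap of the groups. It stood at 26.3, 27.6 and 29.4 TPM in control and at 36.0, 32.7 and 42.1 TPM in XYA1353 libraries (log2 fold change 0.39, SE 0.11, limma adjusted p = 0.0284). Without any 1 control library or XYA1353 replicate 1 the adjusted p was 0.0583 to 0.0919, and without the filter on low values it was 0.0639. HIST1H2AM rose from 5.21, 8.95 and 11.2 TPM to 15.5, 12.2 and 18.5 TPM, also with no overlap (0.83, SE 0.26, limma adjusted p = 0.047). That call was lost in each fit that left out 1 library except control replicate 3, with adjusted p from 0.0671 to 0.126. It was also lost under median-of-ratios scaling (limma adjusted p = 0.0508), quantile normalization (0.0653), no trend (0.0681) and no filter (0.132). The annotated span of HIST1H2AM overlaps that of HIST1H3J on the same strand, so some reads may not be assigned to 1 gene. HIST2H2AC fell from 1.06, 3.59 and 2.43 TPM to 0, 0 and 1.06 TPM (log2 fold change -1.33, limma adjusted p = 0.0423). At such levels the groups touch, and without control replicate 2 or 3 or XYA1353 replicate 1 or 2 the adjusted p was 0.116 to 0.13. The limma adjusted p was 0.0508 without a trend and 0.108 without the filter on low values. The 13 tested H2A genes had 2 rises, 1 fall and 10 genes without a call. HIST1H2AK, named after its values were seen, stood at 7.60, 4.67 and 13.5 TPM in control libraries and was listed at 0, 0 and 15.9 TPM in XYA1353 libraries. XYA1353 replicate 3 was thus the highest of all 6 libraries for this gene and the other two were listed at 0.

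H1 transcripts came almost entirely from HIST1H1C (ENSG00000187837, chromosome 6, 26055787 to 26056428, minus strand), a linker histone. Its values were 849.6, 1073 and 1180 TPM in control and at 613, 801 and 1247 TPM in XYA1353 libraries. The groups overlapped, because XYA1353 replicate 3 was the highest of the 6 libraries and XYA1353 replicates 1 and 2 the lowest (log2 fold change -0.27, SE 0.25, limma adjusted p = 0.441). Without XYA1353 replicate 1 its log2 fold change was -0.0357. HIST1H1E stood at 6.22, 4.35 and 6.20 TPM against 4.93, 3.64 and 6.71 TPM, and HIST1H1D at 0.60, 1.31 and 2.33 TPM against 0.31, 0.44 and 1.96 TPM. Of the 3 tested H1 genes 0 were called, with 0 at an unadjusted p under 0.05 and 0 with the block.

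H3 genes were mixed. HIST1H3H, the most abundant, stood at 68.3, 88.9 and 100.4 TPM in control and at 58.4, 68.5 and 113 TPM in XYA1353 libraries, with overlap (log2 fold change -0.14, limma adjusted p = 0.693). HIST1H3B stood at 22.8, 30.4 and 28.7 TPM in control and at 33.2, 32.5 and 55.8 TPM in XYA1353 libraries. Its groups did not overlap, but the difference of 0.52 (SE 0.22) was not called (adjusted p = 0.11 by limma). HIST2H3D (ENSG00000183598, chromosome 1, 149813271 to 149813681, minus strand) fell from 8.98, 9.62 and 13.7 TPM to 4.50, 4.82 and 8.55 TPM, without overlap (-0.78, SE 0.25, limma adjusted p = 0.0475). The call was lost on leaving out any 1 library except XYA1353 replicate 3 (limma adjusted p from 0.0768 to 0.154). It was also lost under median-of-ratios scaling (limma adjusted p = 0.0544), no trend (0.0652) and no filter (0.132). The 8 tested H3 genes had 0 rises, 1 fall and 7 genes without a call, with 1 higher at an unadjusted p under 0.05. Their median log2 fold change was 0.45, with HIST2H3A and HIST2H3C, which carry the same values, both counted. With a mean of at least 5 TPM as the condition, 3 H3 genes were left and the median was -0.14.

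H4 genes were the family with the most fold changes above 0. HIST1H4K (ENSG00000273542, chromosome 6, 27831216 to 27831527, minus strand) rose from 6.37, 7.85 and 9.47 TPM to 12.4, 13.8 and 14.1 TPM. All XYA1353 libraries were above all control libraries (log2 fold change 0.71, SE 0.15, limma adjusted p = 0.0104), and the call was lost only without both libraries numbered 1 (adjusted p = 0.0562). HIST2H4A (ENSG00000270882, chromosome 1, 149832659 to 149839767, plus strand), the most abundant, stood at 62.4, 67.6 and 74.6 TPM in control and at 65.5, 74.8 and 108 TPM in XYA1353 libraries. Within each replicate number the XYA1353 library was the higher, but the groups overlapped (0.25, SE 0.18, limma adjusted p = 0.327). Summed with HIST2H4B, its log2 fold change was 0.29 (limma adjusted p = 0.254). HIST1H4H stood at 30.0, 30.2 and 38.2 TPM against 25.8, 32.2 and 35.6 TPM, and HIST1H4J at 7.20, 22.3 and 14.2 TPM against 15.5, 18.1 and 26.5 TPM, neither called. The 9 tested H4 genes had 1 rise, 0 falls and 8 genes without a call. At an unadjusted p under 0.05, 2 were higher and 0 lower. With the replicate block 4 rose and 0 fell, the added genes being HIST1H4I, HIST1H4E and HIST2H4B, named after their values were seen.

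**Figure D2:**
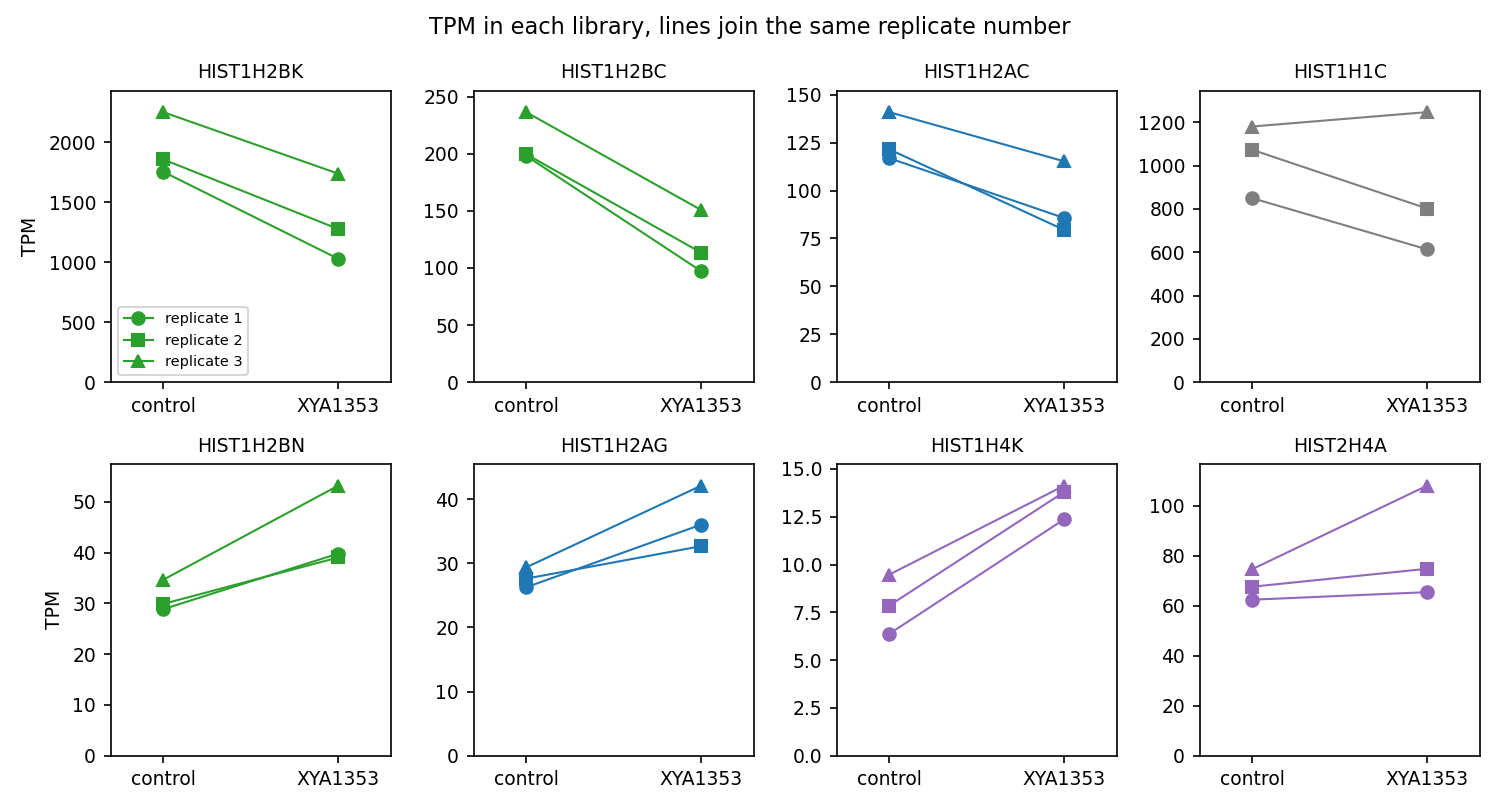
TPM (y axis, from 0) of 8 clustered histone genes in each library, with a line joining the control and XYA1353 libraries of the same replicate number. HIST1H2BK, HIST1H2BC and HIST1H2AC are lower in XYA1353 in 3 of 3 pairs, HIST1H1C is not, and HIST1H2BN, HIST1H2AG, HIST1H4K and HIST2H4A are higher in 3 of 3 pairs.

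The direction of the fold changes differed by family. Of tested members, 3 of 3 H1, 8 of 13 H2A, 14 of 15 H2B, 3 of 8 H3 and 2 of 9 H4 genes lay below 0, against 6440 of all 13392 genes tested. Median log2 fold changes were -0.27 for H1, -0.22 for H2A, -0.33 for H2B, 0.45 for H3 and 0.48 for H4. These signs held under median-of-ratios scaling and under quantile normalization, where the H2B median was -0.44 and the H4 median 0.34. With near-identical copies summed, 8 of 12 H2A, 3 of 7 H3 and 2 of 8 H4 genes lay below 0. Their medians were -0.27, 0.45 and 0.44. Without XYA1353 replicate 1 the H2A median was 0.03 and the H2B median -0.04, with 10 of 15 H2B genes below 0, while the H4 median was 0.50. The H4 median was lower without control replicate 1 (0.19) and without XYA1353 replicate 3 (0.28). The H3 median was 0.30 and 0.20 in those fits and 0.22 under quantile normalization. Members of a family share sequence and are not replicates, so these counts are descriptions, and the difference between families was not tested.

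Summed over members, H2B took the largest part of histone TPM in every library. The H2B sum was 2190, 2339 and 2857 TPM in control and 1319, 1626 and 2223 TPM in XYA1353 libraries, with overlapping groups. HIST1H2BK made up 78.8% of it, so the H2B sum and share largely follow that gene, which was not called. The log2 ratio of the H2B group means was -0.515, or -0.437 without HIST1H2BK. As a share of all clustered histone TPM, H2B was 55.8%, 52.1% and 53.7% in control and 48.6%, 48.8% and 45.3% in XYA1353 libraries, so the shares of the groups did not overlap. The H4 sum was 136, 158 and 174 TPM in control and 156, 184 and 239 TPM in XYA1353 libraries, also with overlapping groups. The H4 share was 3.46%, 3.52% and 3.28% in control and 5.75%, 5.51% and 4.88% in XYA1353 libraries, with no overlap. H3 moved from 2.74% to 3.09% of histone TPM in control to between 3.47% and 4.05% in XYA1353 libraries. The sum of all 75 members was 3924, 4489 and 5316 TPM in control and 2712, 3330 and 4903 TPM in XYA1353 libraries, and the groups overlapped. The log2 ratio of the group means was -0.33, and it was -0.15 without XYA1353 replicate 1, -0.60 without XYA1353 replicate 3, -0.21 without control replicate 3 and -0.19 without HIST1H2BK. Shares of a sum depend on each other, and TPM compares genes per annotated length, which for histone genes depends on whether the model includes the end of the mRNA.

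**Figure D3:**
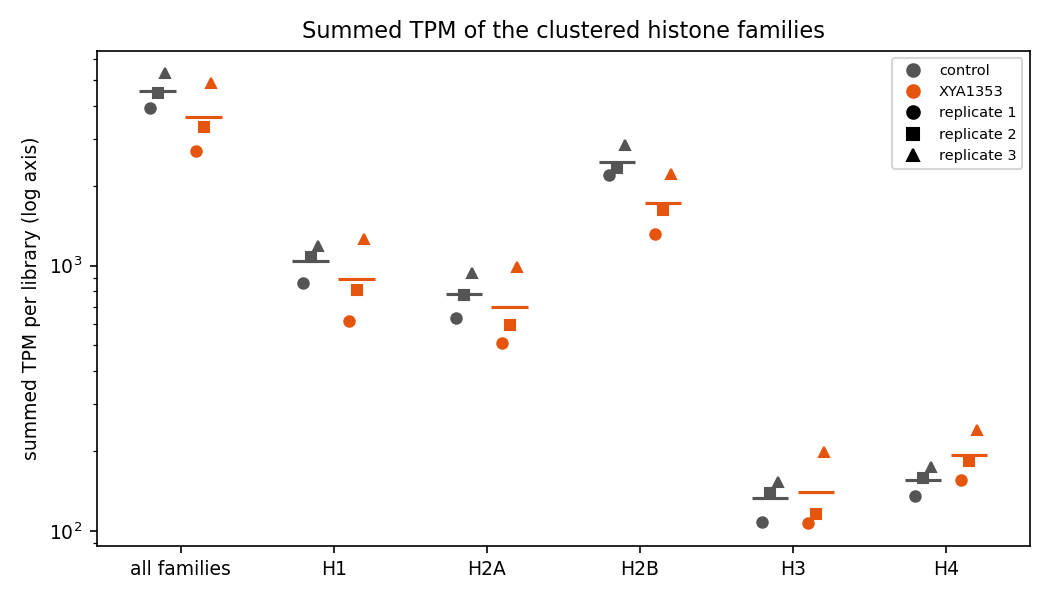
Summed TPM per library (log axis) of all clustered histone genes and of each family, with control in grey, XYA1353 in orange, a symbol for each replicate number and a bar at the group mean. The H2B sum is lower in XYA1353 in 3 of 3 pairs and the H4 sum higher in 3 of 3 pairs. The groups overlap in both sums, and the labels do not pair the libraries.

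Library differences within a group were as large as the group difference for many members. Replicate 3 was the highest XYA1353 library for 44 of the 48 tested members (91.7%), against 27.6% of all genes tested, and the highest control library for 33 (68.8%), against 30.7%. Replicate 1 was the lowest control library for 38 members (79.2%), against 40.2% of all genes tested, and the lowest XYA1353 library for 34 (70.8%), against 28.9%. The erythroid markers followed the same order, with a summed TPM of 10690, 11380 and 13380 in control and of 7103, 10660 and 18710 in XYA1353 libraries, from 13 of 13 tested genes. The part of this order in the histone values was not tested. The genes outside the members whose log2 values lay closest to the log2 histone sum over the 6 libraries were IQSEC1 (Pearson's r 0.996), LMO2 (0.989), NCAPH (0.986), HBD (0.984) and TPM1 (0.984), given as a description.

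Many H2A and H2B genes lie head to head and share a promoter region. In GENCODE release 29, 14 pairs of members started within 1000 bases of each other on opposite strands, and 13 of them joined an H2A and an H2B gene. Of 11 pairs with both genes tested, both log2 fold changes lay below 0 in 6, the signs were opposite in 5, and both lay above 0 in 0. HIST1H2BO is in the opposite pairs with HIST1H2AM and with HIST1H3J, so the pairs are not separate. Some signs rest on values near 0. These were HIST1H2AH (0.11, SE 0.55) and HIST2H2AA4 (0.10, SE 0.38) in opposite pairs and HIST2H2BD (-0.05, SE 0.30) in a pair below 0. HIST1H2BC and HIST1H2AC, with starts 219 bases apart, had log2 fold changes of -0.83 and -0.45. HIST1H2BJ and HIST1H2AG, 292 bases apart, had -0.51 and 0.39, so genes on either side of 1 intergenic stretch differed in sign. HIST1H2BJ stood at 55.3, 64.6 and 85.7 TPM in control and at 44.4, 41.1 and 57.2 TPM in XYA1353 libraries.

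Promoter sequences of RefSeq (GRCh38.p14, from 250 bases before to 50 after the start) were matched for 63 of the 75 members. Those of HIST1H2BC, HIST1H2AG and HIST1H4K are shown, for the pair that was lower on both sides, for the pair of opposite sign and for the H4 gene that rose. Capitals mark the octamer ATTTGCAT, the CCAAT box CCAAT and the TATA sequence TATAAA on either strand, with overlapping matches run together.
HIST1H2BC with HIST1H2AC, chr6:26123877-26124176, minus strand: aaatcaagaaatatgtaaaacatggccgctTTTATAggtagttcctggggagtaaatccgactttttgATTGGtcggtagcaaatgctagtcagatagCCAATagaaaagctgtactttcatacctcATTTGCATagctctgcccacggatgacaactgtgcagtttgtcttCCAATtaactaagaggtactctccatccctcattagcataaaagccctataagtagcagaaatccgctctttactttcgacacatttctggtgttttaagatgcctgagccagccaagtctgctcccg
HIST1H2AG with HIST1H2BJ, chr6:27132793-27133092, plus strand: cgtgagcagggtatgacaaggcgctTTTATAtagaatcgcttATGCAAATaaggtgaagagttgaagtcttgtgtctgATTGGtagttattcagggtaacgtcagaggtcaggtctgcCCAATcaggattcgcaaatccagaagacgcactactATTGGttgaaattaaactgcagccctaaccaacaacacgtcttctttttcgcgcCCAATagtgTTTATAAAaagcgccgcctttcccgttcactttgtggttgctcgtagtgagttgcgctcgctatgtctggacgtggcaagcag
HIST1H4K, chr6:27831511-27831810, minus strand: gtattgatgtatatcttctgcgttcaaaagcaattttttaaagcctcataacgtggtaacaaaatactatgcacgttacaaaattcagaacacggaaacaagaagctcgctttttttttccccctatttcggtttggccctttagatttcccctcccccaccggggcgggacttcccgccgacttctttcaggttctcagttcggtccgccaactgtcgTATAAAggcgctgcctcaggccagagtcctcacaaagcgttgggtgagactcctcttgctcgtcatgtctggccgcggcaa
The octamer, a site of OCT1 known from H2B promoters, was found in 14 of 18 H2B and 11 of 14 H2A promoters, and windows of head-to-head genes overlap, so 1 site can be counted under both genes. It was found in 1 of 12 H3, 0 of 13 H4 and 0 of 6 H1 promoters, and in 1.71% of 27242 other promoters. CCAAT was present in all 6 H1, 14 H2A, 18 H2B and 12 H3 promoters and in 3 of 13 H4 promoters, against 35.6% of the others. TATAAA was found in 65.1% of the 63 member promoters and in 11.8% of the others. These matches are descriptions of letters in the window and say nothing of which factor was bound.

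Genes listed for histone transcription and 3′ end processing were lower in XYA1353 libraries more often than higher. The list is broad and is not limited to genes that act on histone mRNA alone. Its falls include SNRPB, SNRPD3, SNRPF, SNRPG, UPF1 and NCBP1. Of 33 tested genes of histone transcription and 3′ end processing 2 rose, 13 fell and 18 had no call (45.5% called against 31.4% of all genes). Their median log2 fold change was -0.23. CPSF2, a subunit of the complex that cuts the histone pre-mRNA, stood at 42.1, 44.7 and 39.2 TPM in control and at 28.4, 25.5 and 30.2 TPM in XYA1353 libraries and fell by 0.57 on the log2 scale (limma adjusted p = 0.00452). MIF4GD, which links SLBP to translation, rose by 0.55 (adjusted p = 0.0227 by limma), from 14.6, 14.5 and 17.2 to 25.2, 25.4 and 18.8 TPM. Its call was lost without control replicate 1 or 2 or XYA1353 replicate 1 or 2 (limma adjusted p from 0.0773 to 0.0872). HINFP, the other gene of the list that rose, is named after its values were seen. It went from 14.3, 14.1 and 14.5 to 19.6, 21.6 and 18.4 TPM (log2 fold change 0.44, limma adjusted p = 0.0104). SLBP itself stood at 101, 97.4 and 107.5 TPM in control and at 79.3, 77.6 and 97.7 TPM in XYA1353 libraries. XYA1353 replicate 3 reached the control range, and the difference of -0.27 was not called (limma adjusted p = 0.0777, or 0.0375 with the block). NPAT, the cofactor of histone gene transcription (log2 fold change 0.12, limma adjusted p = 0.517), and CASP8AP2, which also acts at histone loci (-0.09, adjusted p = 0.51), were not called.

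Of 30 histone chaperone and deposition genes 2 rose, 14 fell and 14 had no call (53.3% called), and the median log2 fold change was -0.24. ASF1B, a chaperone of H3 and H4, stood at 34.7, 40.5 and 39.5 TPM in control and at 55.5, 69.4 and 66.8 TPM in XYA1353 libraries and rose by 0.72 (limma adjusted p = 0.00331). IPO4, an importin that carries H3 and H4 into the nucleus, fell by 0.67, from 61.6, 83.4 and 75.3 to 48.0, 42.7 and 45.7 TPM (limma adjusted p = 0.00571). Of 50 replication and S phase genes 3 rose, 17 fell and 30 had no call (40.0% called), and the median was -0.17. MCM4, a subunit of the replicative helicase, fell by 0.73 (adjusted p = 0.0166 by limma, or 0.065 without control replicate 1) and TIPIN, of the fork protection complex, by 0.70 (adjusted p = 0.00212). Without both libraries numbered 1 the calls were 2 of the processing factors, 7 of the chaperones and 7 of the S phase genes, in a fit that called 10.7% of all genes.

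Histone genes outside the clusters, most of them variants, gave 1 called gene of 8 tested (12.5%), with a median log2 fold change of 0.03. H2AFX, whose transcripts hold the stem-loop letters, and CENPA, the centromeric H3, are among the 8. H1FX, a linker histone, rose from 37.9, 42.6 and 54.0 TPM to 73.4, 63.7 and 104.4 TPM (0.81, SE 0.20, limma adjusted p = 0.0193), with no overlap. That call was lost without control replicate 1 or 2 or XYA1353 replicate 1 (limma adjusted p from 0.0505 to 0.0726), without the filter on low values (0.065) and without both libraries numbered 1 (0.134). The difference between H1FX and HIST1H1C, which had a log2 fold change of -0.27, was not tested. H2AFZ (-0.13), H3F3A (0.06) and H3F3B (0.23), named after their values were seen, were not called.

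**Figure D4:**
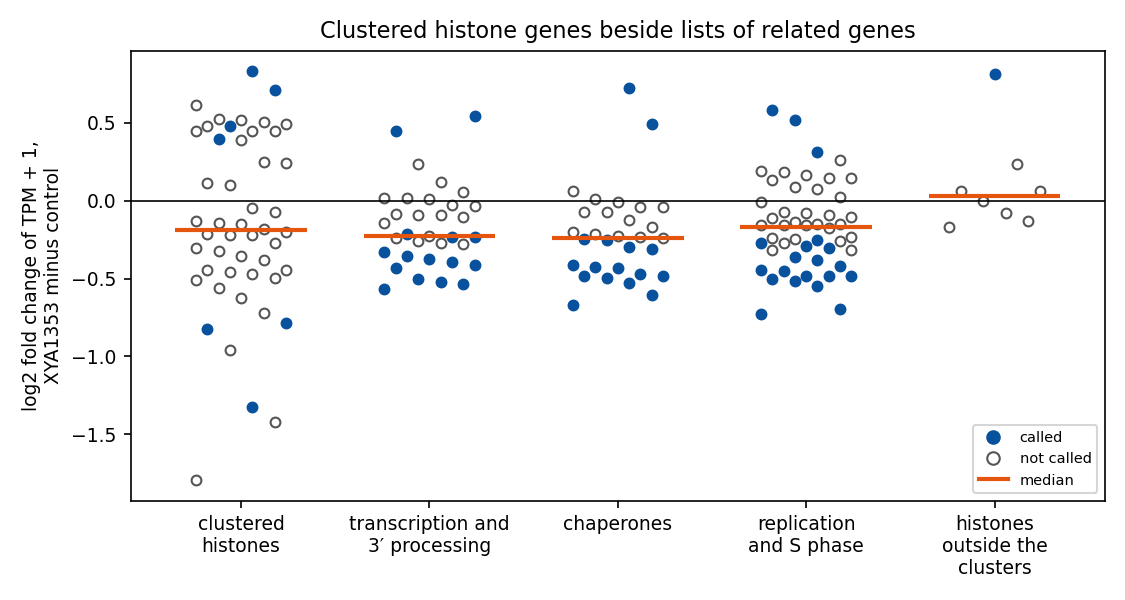
Log2 fold change of TPM + 1 (XYA1353 minus control) of the tested clustered histone genes and of genes in 4 related lists, with filled points for called genes and an orange bar at each median. The clustered histone genes spread from -1.79 to 0.83, and their median is -0.19.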

How the data were processed

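The authors deposited gene-level TPM for 6 libraries, with their group means, which were not used. The submitters' processing notes name the mouse builds GRCm38 and mm10, yet the identifiers are human, and no source used here gives the aligner, counter or annotation. RNA came from an RNeasy kit and libraries from a SMARTer mRNA kit, per the labels' protocols. Of 61206 rows, 583 without a name were left out, and 13392 that averaged 1 TPM or more were tested. Log2(TPM + 1) was fitted with limma 3.58.1 (eBayes with a trend) in R 4.3.3, two-sided, with Benjamini-Hochberg adjustment over all genes tested and a call at 0.05. Fold changes on this scale understate those of low genes. Errors are the SE of the fit. The limma step was tested on simulated data. Tables and plots were made in Python 3.11.15 with pandas 2.3.3 and matplotlib 3.10.9.

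The members and the gene lists were chosen with earlier results of these data known. Named members are the 3 of highest mean TPM in each family and every called member. In each other list the 2 called genes that changed most and averaged 5 TPM or more are named, with SLBP, NPAT and CASP8AP2 in any case. Deviations from the group means correlated across genes by 0.111, 0.114 and 0.133 between libraries of the same number (1, 2 and 3) and by -0.116 to -0.00187 between other pairs, so the numbers were taken as pairs from the data, not from the labels. Deviations within a group sum to 0, so these correlations depend on each other. Alternative settings were no filter, a pseudocount of 0.1, a mean of at least 5 TPM, median-of-ratios scaling, quantile normalization, no trend, the replicate block, leaving out each library, and leaving out both libraries numbered 1. Summing near-identical copies was added after the data were examined.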

Additional observations from a re-analysis of the deposited data

How the results depend on the processing

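Of the clustered histone genes 4 were called higher and 3 lower. Without a filter on low values these counts were 1 and 1, with eBayes without a trend 2 and 1, with median-of-ratios scaling 2 and 2, and with the replicate block 7 and 6. In the same order these fits called 3236, 3851, 4275 and 4286 of all genes, against 4210 in the main fit. The fit without a filter tested more genes. Without both libraries numbered 1 the member counts were 0 and 0 (limma, 4 and 4 at an unadjusted p under 0.05). That fit called 1432 of all genes in place of 4210, with 2 processing factors, 7 chaperones, 7 S phase genes and 0 histones outside the clusters. The last list had 0 calls without the filter, 3 under quantile normalization and 2 with the block. Leaving out 1 library gave 1 to 4 members higher and 1 to 10 lower, 2608 to 4460 of all genes, 8 to 16 processing factors, 12 to 18 chaperones, 15 to 23 S phase genes, 0 to 3 histones outside the clusters and a log2 ratio of the summed TPM of -0.599 to -0.153. Leaving out 1 library turned the sign of 0 to 8 of the 48 tested members, 8 without XYA1353 replicate 1, and quantile normalization turned 1. Among named members 4 turned, each uncalled. Over the fits without 1 library the log2 fold change ran from -0.251 to 0.428 for HIST2H2AA4, from -0.418 to 0.0518 for HIST1H3H, from -0.171 to 0.053 for HIST1H4H and from -0.315 to 0.0509 for HIST1H1E. Among the members, the block added the 6 calls given beside their genes and lost none. The cause of these changes was not tested. Depth is unknown, so counting error could not be separated from the spread between libraries.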

Other observations

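The 14 numbered pseudogene names left out of the members all averaged under 1 TPM, and 8 were listed at 0 in every library. HIST2H3PS2 stood at 2.50, 0.35 and 0.34 TPM in control replicates 1, 2 and 3 and at 0.60, 0.07 and 0.11 TPM in the XYA1353 libraries.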
